A study of Homo sapiens with 6 samples.

Results

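The histone lysine demethylases described here are KDM1A, KDM2A, KDM2B, KDM3A, KDM4A, KDM4B, KDM5A, KDM5B, KDM6A and KDM6B, 10 of the 60605 genes in the deposited count table, chosen by symbol. RNA carrying a poly(A) tail was sequenced from HuCCT-1, an established human line of bile duct cancer grown in DMEM-F12 with serum. The JNJ group held 3 libraries of cells given 6 nM of the PRMT5 inhibitor JNJ-64619178 for 4 days, and the DMSO group held 3 libraries of the same cells given an equal volume of solvent over that time. PRMT5 places symmetric dimethyl marks on arginine, and the study asked what its inhibition does to gene expression in this cancer. Nothing in the labels says whether the replicates were separate cultures, so p-values measure the spread between these libraries, which may be technical. Both groups come from 1 cell line. Total counts per library ranged from 23931991 to 28224911 with JNJ and from 28133746 to 30691914 with DMSO.

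Histone lysine demethylases remove methyl groups from lysines in histone tails and so act against the histone methyltransferases. KDM1A, also called LSD1, is a flavin-dependent amine oxidase, whereas the other members share a JmjC domain that uses iron, oxygen and 2-oxoglutarate. The residue each enzyme prefers sets its role: H3K4 methylation marks promoters and enhancers in use, H3K9 and H3K27 methylation mark silent chromatin, and H3K36 methylation lies over transcribed gene bodies. KDM6A is mutated in several cancers, and KDM1A and the KDM5 enzymes have been pursued as drug targets.

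Promoter windows from RefSeq (GRCh38.p14), covering the 250 bases before a start site on the gene's own strand, were available for all 10 members, as 16 windows in all. The windows shown belong to KDM5A and KDM6A, which rose most among the members, and to KDM3A and KDM4B, both known as genes induced by hypoxia, of which the first rose and the second did not pass the test. They lie at chr12:389321-389570 on the minus strand for KDM5A, and on the plus strand at chrX:44872938-44873187 for KDM6A, chr2:86441121-86441370 for the first of KDM3A's windows and chr19:4968863-4969112 for KDM4B. Capitals mark ACGTG on either strand, the core of the site bound by hypoxia-inducible factors.
KDM5A: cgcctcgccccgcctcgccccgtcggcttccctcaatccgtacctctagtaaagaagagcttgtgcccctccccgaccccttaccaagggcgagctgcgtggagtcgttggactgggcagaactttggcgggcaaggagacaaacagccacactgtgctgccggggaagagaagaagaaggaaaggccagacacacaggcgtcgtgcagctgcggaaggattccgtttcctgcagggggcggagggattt
KDM6A: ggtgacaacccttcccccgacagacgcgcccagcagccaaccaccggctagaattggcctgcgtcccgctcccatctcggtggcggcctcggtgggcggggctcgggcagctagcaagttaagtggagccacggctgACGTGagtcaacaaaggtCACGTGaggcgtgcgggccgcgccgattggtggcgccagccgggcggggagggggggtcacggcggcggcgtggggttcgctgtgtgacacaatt
KDM3A: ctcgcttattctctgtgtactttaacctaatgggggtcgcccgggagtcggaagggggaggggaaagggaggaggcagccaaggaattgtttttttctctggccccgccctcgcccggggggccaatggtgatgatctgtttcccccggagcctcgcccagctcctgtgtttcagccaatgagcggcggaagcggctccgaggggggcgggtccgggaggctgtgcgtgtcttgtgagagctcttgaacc
KDM4B: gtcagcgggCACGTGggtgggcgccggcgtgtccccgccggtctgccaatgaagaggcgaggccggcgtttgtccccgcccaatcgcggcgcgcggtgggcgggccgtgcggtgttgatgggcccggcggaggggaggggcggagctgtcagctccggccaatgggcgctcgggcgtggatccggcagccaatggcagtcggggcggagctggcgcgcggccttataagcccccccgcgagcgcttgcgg
ACGTG was found in the windows of KDM1A, KDM4B and KDM6A, 3 of 16 member windows, against 18.5% of all 35116 windows of the same length. KDM6A held 2 such stretches and KDM4B 1, while the KDM5A and KDM3A windows held none. Of the other motifs searched on both strands, CCAAT (the NF-Y box) stood in 8 of the 16 windows against 32.0% of all, and GGGCGG (the GC box) in 12 against 42.6%. By gene these were 6 and 9 of the 10 members, as the windows of 1 gene are not independent and both windows of KDM3A overlap and share sites. GGAAGT (an ETS site) stood in 0 against 19.5% and TGACGT (the core of a cyclic AMP response element) in 2 against 7.1%. G and C made up 50.4% to 83.6% of the member windows, where the median over all windows was 58.0%, and 1 window each of KDM6B and KDM2B lay below that median. A match of letters is a description of the window and says nothing of binding.

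Transcripts of 8 of the 10 members were higher in JNJ cells and 0 were lower by edgeR's quasi-likelihood test at an adjusted p under 0.05. The count of members lower was also 0 at an unadjusted p under 0.05, in DESeq2 and in limma-voom. Members higher numbered 6 in DESeq2 and 7 in limma-voom. The H3K4 demethylase KDM5A rose most (1.46-fold), followed by the H3K27 demethylase KDM6A (1.32-fold), the H3K9 demethylase KDM3A (1.23-fold) and the H3K36 demethylase KDM2A (1.23-fold). KDM2B, KDM4A, KDM5B and KDM6B rose by 1.10-fold to 1.14-fold, and KDM1A and KDM4B did not pass. All 10 members passed the filter on low counts. Over all 17371 genes tested, 20.0% were higher and 17.1% were lower (37.1% in either direction), and the median log2 fold change was 0.0014, beside 0.18 for the members. The members have 19 to 31 separate exon blocks each. Among the 2374 tested genes with that many, 33.4% were higher and 13.8% lower, with a median of 0.08, and the part that exon number plays in the members' count was not tested. The 3 JNJ libraries lay above all DMSO libraries in the 8 members that rose, an order found in 24.7% of all genes tested. The JNJ libraries were all lower for 22.2% of them, and the groups did not overlap for 47.0%. In bulk samples, a change in the share of cells of a kind and a change in RNA per cell cannot be told apart. With upper-quartile scaling, which turned the split over all genes from 3478 higher and 2970 lower to 2800 higher and 4099 lower, 4 members were higher (KDM2A, KDM3A, KDM5A and KDM6A) and KDM1A was lower. The count of members higher was 5 with no filter, 4 without DMSO replicate 2, and 5 without JNJ replicate 3, DMSO replicate 1 or DMSO replicate 3.

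**Figure D1:**
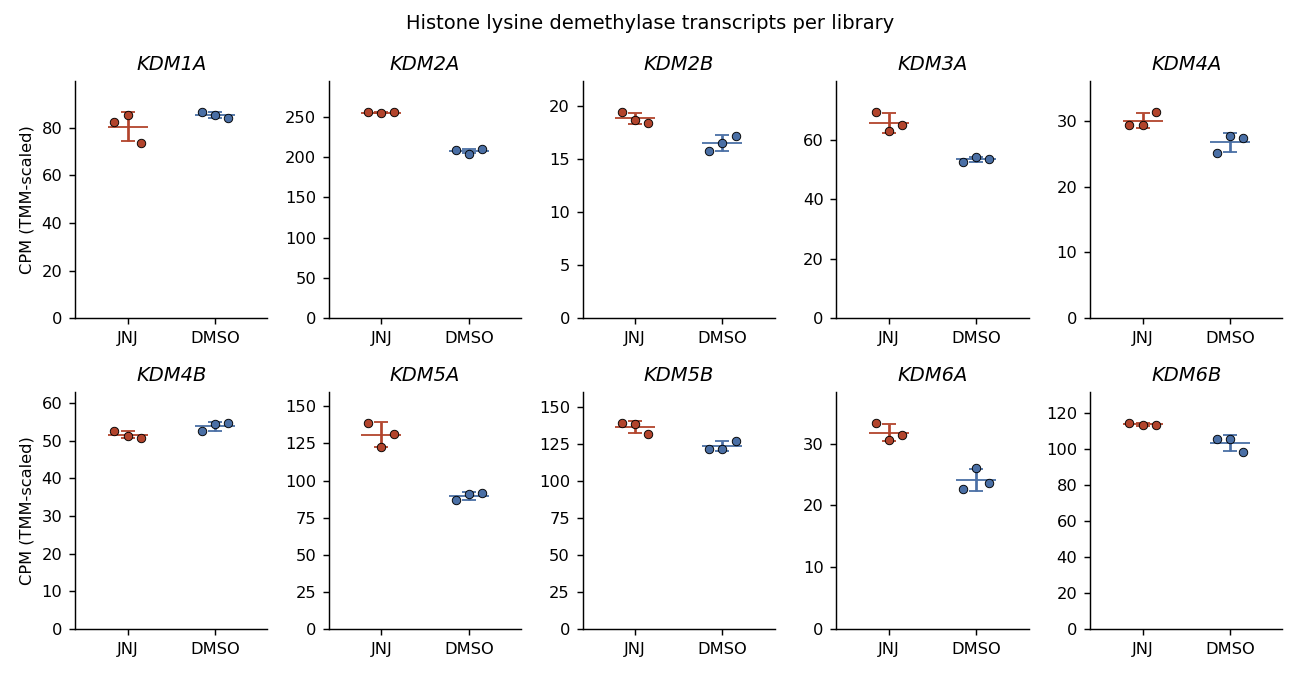
CPM scaled by TMM (y axis, from 0) of the 10 histone lysine demethylases in 3 JNJ libraries (left, red) and 3 DMSO libraries (right, blue). Points are libraries and bars the mean ± SD. The groups lie apart in 8 panels and overlap for KDM1A and KDM4B, and the largest ratio of means is that of KDM5A, at 131 ± 8.28 CPM in JNJ cells and 89.8 ± 2.80 CPM in DMSO cells.

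**Figure D2:**
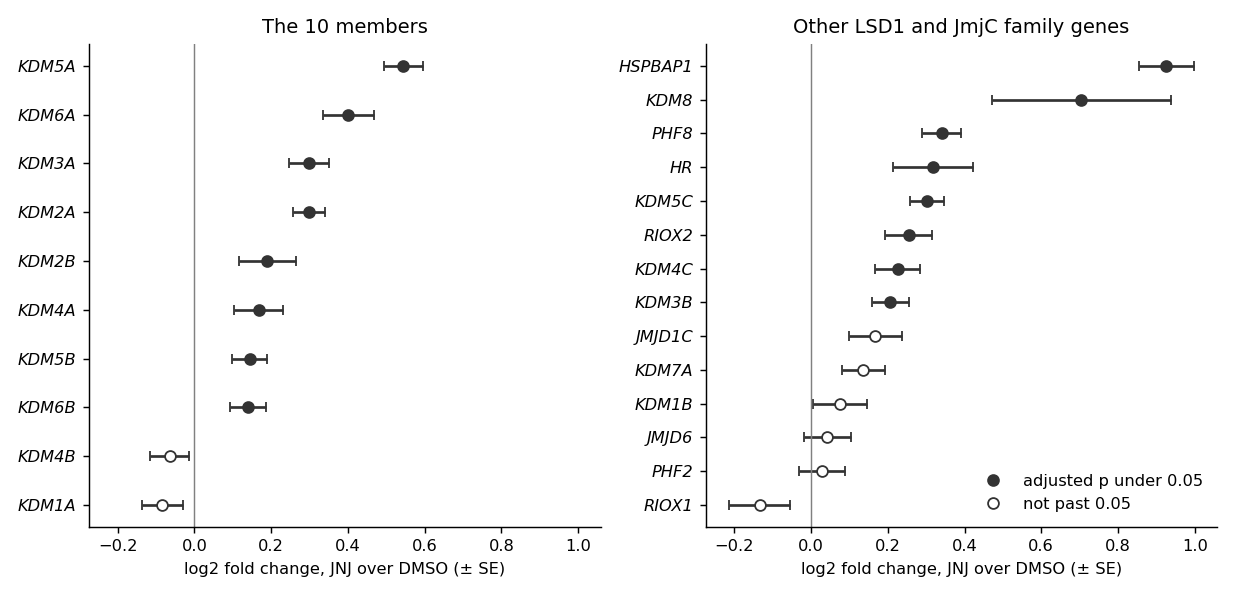
Log2 fold change, JNJ over DMSO, with its standard error, for the 10 members (left) and the 14 tested genes among the other LSD1 and JmjC family genes (right). Filled points passed an adjusted p of 0.05. In each panel 8 genes are filled, all to the right of 0.

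KDM5A, KDM5B and KDM1A remove methyl groups from H3K4. KDM5A (ENSG00000073614, chromosome 12, 280129 to 389454) had 139, 122 and 132 CPM in the JNJ libraries and 86.6, 91.2 and 91.6 CPM in the DMSO libraries. The JNJ libraries were all higher, with the second JNJ library the lowest of them (log2 fold change 0.54, SE 0.05, edgeR adjusted p = 6.2e-09). Its call held in all 13 alternatives, between 0.48 and 0.59. KDM5B (ENSG00000117139, chromosome 1, 202724495 to 202809470), a paralogue often abundant in epithelial tumours, had 139, 138 and 132 CPM with JNJ and 122, 122 and 127 CPM with DMSO. The groups did not overlap, but the gap was small (log2 fold change 0.14, SE 0.05, edgeR adjusted p = 0.0144). This call was lost with upper-quartile scaling (adjusted p = 0.141) and without DMSO replicate 1 (0.0783) or DMSO replicate 2 (0.0949). KDM1A (ENSG00000004487, chromosome 1, 23019443 to 23083689), the catalytic subunit of the LSD1-CoREST repressor complex, had 82.3, 85.4 and 73.7 CPM with JNJ and 86.6, 85.5 and 83.9 CPM with DMSO. The groups overlapped and the third JNJ library was the lowest of the 6 (log2 fold change -0.08, SE 0.05, edgeR adjusted p = 0.232). Without it the log2 fold change was -0.02 (adjusted p = 0.79), and with upper-quartile scaling KDM1A passed as lower (-0.14, adjusted p = 0.0354).

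KDM6A and KDM6B, also called UTX and JMJD3, remove methyl groups from H3K27, the mark of Polycomb silencing. KDM6A (ENSG00000147050, chromosome X, 44873177 to 45112602), a subunit of the KMT2C and KMT2D complexes at enhancers, had 33.4, 30.6 and 31.4 CPM with JNJ and 22.6, 26.01 and 23.7 CPM with DMSO. Every JNJ library was above every DMSO library (log2 fold change 0.40, SE 0.07, edgeR adjusted p = 4.02e-05). Its call held in all 13 alternatives. KDM6B (ENSG00000132510, chromosome 17, 7839904 to 7854796), known from macrophages as a gene induced by NF-kB, had 115, 113 and 113 CPM with JNJ and 106, 106 and 98.4 CPM with DMSO. The JNJ libraries lay close together and above the DMSO libraries, of which the third was lowest (log2 fold change 0.14, SE 0.05, edgeR adjusted p = 0.021). KDM6B did not pass without DMSO replicate 3 (log2 fold change 0.09, adjusted p = 0.158), DMSO replicate 2 (0.0534) or JNJ replicate 3 (0.0559). Upper-quartile scaling (0.184) and leaving low counts unfiltered (0.0628) also ended its call.

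KDM2A and KDM2B remove methyl groups from H3K36 and bind unmethylated CpG islands through a CXXC zinc finger. KDM2A (ENSG00000173120, chromosome 11, 67119269 to 67258087) had 256, 254 and 255 CPM with JNJ and 208, 204 and 210 CPM with DMSO. Libraries within a group differed by a few CPM and the groups lay far apart beside that spread (log2 fold change 0.30, SE 0.04, edgeR adjusted p = 4.34e-06). Its call held in all 13 alternatives. KDM2B (ENSG00000089094, chromosome 12, 121429097 to 121581015), which recruits a variant Polycomb repressive complex 1, had 19.4, 18.7 and 18.4 CPM with JNJ and 15.8, 16.6 and 17.2 CPM with DMSO. The groups did not overlap (log2 fold change 0.19, SE 0.07, edgeR adjusted p = 0.0472). This call was the least firm, lost in 12 of 13 alternatives, among them the fits without JNJ replicates 1, 2 and 3 (adjusted p = 0.123, 0.068 and 0.0716), without DMSO replicates 1, 2 and 3 (0.18, 0.1195 and 0.0574) and DESeq2 (0.166).

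KDM3A, KDM4A and KDM4B remove methyl groups from H3K9, and the KDM4 enzymes also act on H3K36. KDM3A (ENSG00000115548, chromosome 2, 86440647 to 86492716), a coactivator of nuclear receptors, had 69.4, 63.0 and 65.0 CPM with JNJ and 52.6, 54.1 and 53.7 CPM with DMSO. All JNJ libraries were higher, by more than the spread within either group (log2 fold change 0.30, SE 0.05, edgeR adjusted p = 6.08e-05), and the call held in all 13 alternatives. KDM4A (ENSG00000066135, chromosome 1, 43650158 to 43705515) had 29.4, 29.3 and 31.4 CPM with JNJ and 25.1, 27.8 and 27.4 CPM with DMSO. The groups did not overlap, with the first DMSO library the lowest (log2 fold change 0.17, SE 0.06, edgeR adjusted p = 0.0431). KDM4A lost its call in 9 of 13 alternatives, among them the fits without JNJ replicate 3 (adjusted p = 0.172) and without DMSO replicates 1, 2 and 3 (0.228, 0.0639 and 0.0731), upper-quartile scaling (0.191) and DESeq2 (0.141). A gene on the same strand, ENSG00000284989, shares 40.2% of the joined exon length of KDM4A and was at 0 counts in all libraries, and the opposite-strand KDM4A-AS1 shares 8.97% and averaged 1.19 CPM with JNJ and 1.89 CPM with DMSO. Where a counter leaves out reads that fall in more than 1 gene, KDM4A would lose reads in the shared stretches and its CPM and level per kilobase would be too low. How such reads were counted is not stated, and this was not tested. KDM4B (ENSG00000127663, chromosome 19, 4969113 to 5153595) had 52.6, 51.3 and 50.8 CPM with JNJ and 52.6, 54.4 and 54.8 CPM with DMSO. The first libraries of both groups were nearly equal and the groups overlapped (log2 fold change -0.06, SE 0.05, edgeR adjusted p = 0.344). KDM4B did not pass in any of the 13 alternatives, where its log2 fold change lay between -0.12 and -0.05. Positions are those of GENCODE release 29 on GRCh38.

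**Figure D3:**
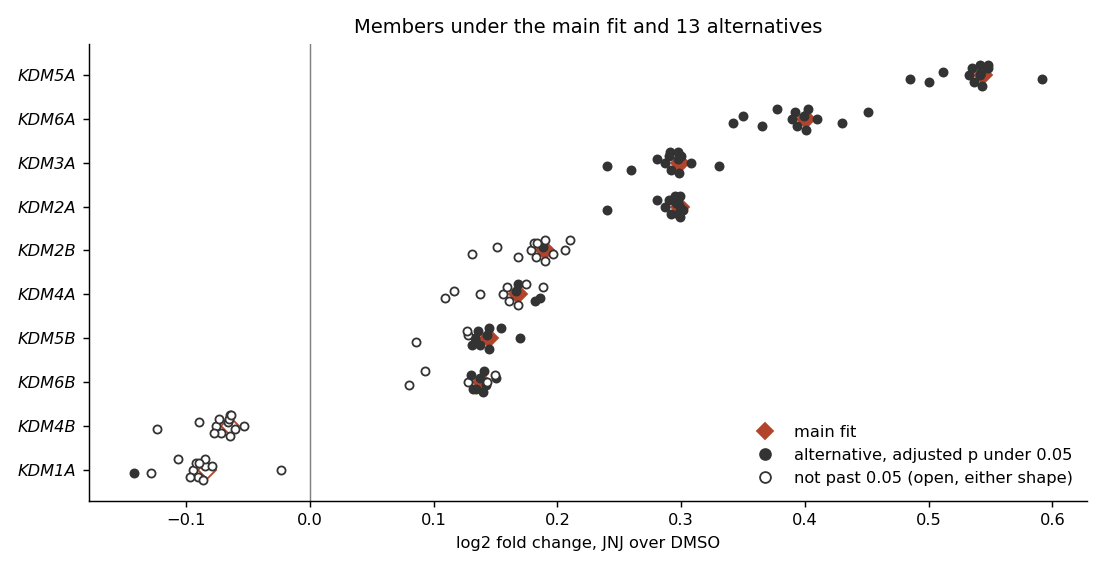
Log2 fold change, JNJ over DMSO, of each member in the main edgeR fit (diamond) and in 13 alternatives (circles). Filled symbols passed an adjusted p of 0.05. KDM2A, KDM3A, KDM5A and KDM6A are filled throughout, KDM2B, KDM4A, KDM5B and KDM6B have open circles on the same side of 0, and KDM1A has 1 filled circle.

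The ratio of a pair of paralogues within a library does not depend on how libraries are scaled, so each pair of A and B genes was compared in this way. With 3 libraries against 3, an exact two-sided permutation test cannot give a p below 0.1, and no pair could pass 0.05. The count of KDM5A was 0.998, 0.885 and 0.999 of that of KDM5B in the JNJ libraries, against 0.712, 0.75 and 0.721 in the DMSO libraries. The ratio was nearer to 1 in each JNJ library than in any DMSO library, and, as a ratio of reads not divided by length, it does not order the levels of the 2 genes. The change was 0.40 ± 0.06 on the log2 scale (SE, n = 3 each), without overlap (exact p = 0.1, 0.133 adjusted over the 4 pairs). For KDM6A over KDM6B the ratio was 0.291, 0.27 and 0.277 with JNJ and 0.213, 0.245 and 0.241 with DMSO, a change of 0.26 ± 0.07 without overlap (exact p = 0.1, adjusted 0.133). For KDM4A over KDM4B it was 0.56, 0.571 and 0.618 with JNJ and 0.477, 0.511 and 0.499 with DMSO, a change of 0.23 ± 0.05 without overlap (exact p = 0.1, adjusted 0.133). In these 3 pairs the balance moved toward the A gene in every JNJ library. KDM2A over KDM2B was 13.2, 13.6 and 13.9 with JNJ and 13.2, 12.3 and 12.2 with DMSO, and here the groups overlapped (change 0.11 ± 0.04, exact p = 0.2, adjusted 0.2).

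**Figure D4:**
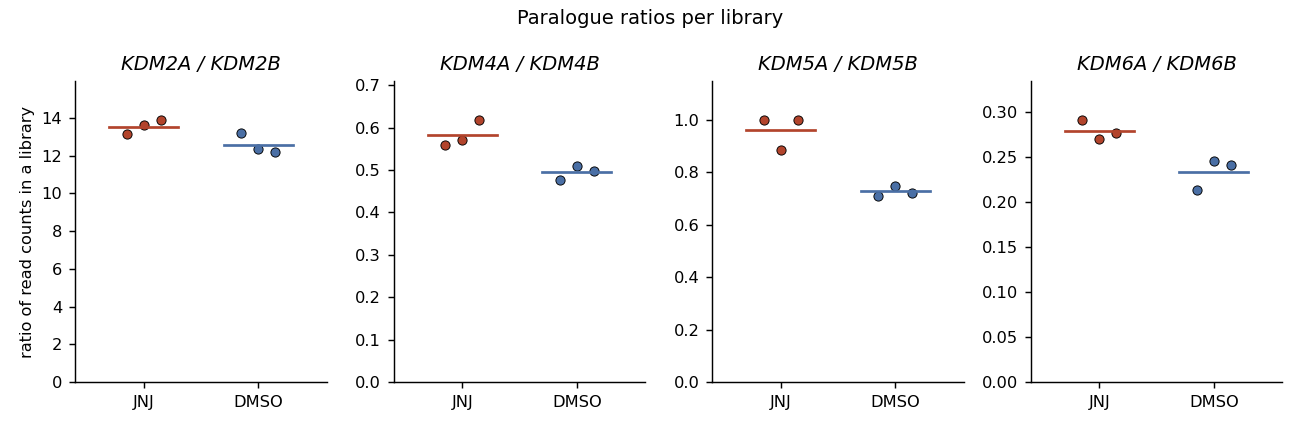
Ratio of read counts of paralogues within each library (y axis, linear from 0), with 3 JNJ libraries (left, red) and 3 DMSO libraries (right, blue) and lines at the group means. The JNJ points lie above the DMSO points for KDM4A over KDM4B, KDM5A over KDM5B and KDM6A over KDM6B, and the groups overlap for KDM2A over KDM2B.

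Levels were ordered across the members per kilobase, as CPM divided by the length of all exons of the gene joined. On that scale KDM2A was highest, at 24.6 ± 0.0769 with JNJ and 20.0 ± 0.268 with DMSO (SD, n = 3 each), and KDM2B lowest, at 1.38 ± 0.0396 with JNJ and 1.21 ± 0.0526 with DMSO. With DMSO the order from the top was KDM2A, KDM1A, KDM6B, KDM5A, KDM4A, KDM5B, KDM3A, KDM4B, KDM6A and KDM2B, and KDM4A with KDM5B and KDM4B with KDM6A had overlapping ranges. With JNJ KDM6B stood above KDM1A and KDM6A above KDM4B. The ranges of KDM6B (15.6 to 15.8) and KDM1A (13.5 to 15.7) overlapped, as did those of KDM5B (5.09 to 5.38) and KDM3A (4.69 to 5.17), while those of KDM6A (4.29 to 4.68) and KDM4B (3.45 to 3.57) did not. The middle of the order depends on the length used, an alternative chosen after the data were seen. By the principal transcript KDM5B (13.2 with JNJ, 11.9 with DMSO) and KDM3A (13.4 with JNJ, 10.8 with DMSO) stood above KDM5A (12.2 with JNJ, 8.34 with DMSO). With JNJ the ranges of KDM5A (11.4 to 12.9) and KDM5B (12.7 to 13.5) overlapped, as did those of KDM5B and KDM3A (12.8 to 14.1), and with DMSO the ranges of neighbours lay apart. On this scale KDM2A, KDM1A and KDM6B were the top 3 with both treatments.

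Of 16 further genes of the LSD1 and JmjC families 14 were tested, and 8 were higher and 0 lower by edgeR (0 lower also at an unadjusted p under 0.05, in DESeq2 and in limma-voom), beside 20.0% and 17.1% over all genes, with a median log2 fold change of 0.22. DESeq2 called 6 of them higher and limma-voom 8. At 0.22 CPM or less on average in either group, KDM4D was not tested, nor was KDM4E, which was at 0 in every library. HSPBAP1, a JmjC protein that binds a small heat shock protein, changed most, with 46.7, 54.4 and 49.0 CPM in the JNJ libraries and 27.9, 28.3 and 23.0 CPM in the DMSO libraries. The groups lay far apart (log2 fold change 0.93, SE 0.07, edgeR adjusted p = 3.12e-10). PHF8 (0.34), a demethylase of H3K9 and H4K20, KDM5C (0.30), the X-linked relative of KDM5A, RIOX2 (0.25), a ribosomal oxygenase, KDM4C (0.23) and KDM3B (0.21) rose on the log2 scale in all 13 alternatives. KDM5C had 168, 163 and 164 CPM with JNJ and 136, 137 and 129 CPM with DMSO, so in the KDM5 group KDM5A, KDM5B and KDM5C were all higher in each JNJ library.

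Calls for KDM8 and HR, which had few reads, were the least firm of this list. KDM8, a JmjC hydroxylase, had 2.07, 3.5 and 3.56 CPM with JNJ and 1.98, 2.39 and 1.28 CPM with DMSO, and its groups overlapped (log2 fold change 0.70, edgeR adjusted p = 0.0198). It lost its call without JNJ replicate 2 (adjusted p = 0.0892), JNJ replicate 3 (0.0931) or DMSO replicate 3 (0.136), and in DESeq2 (0.0636). HR, the hairless corepressor (log2 fold change 0.32, edgeR adjusted p = 0.019), lost its call without JNJ replicate 1 (0.0807), DMSO replicate 2 (0.0863) or DMSO replicate 3 (0.052), in DESeq2 (0.0785) and with upper-quartile scaling (0.0514). JMJD1C (0.17), KDM7A (0.14), KDM1B (0.08), JMJD6 (0.04), PHF2 (0.03) and RIOX1 (-0.13) did not pass. JMJD1C, a relative of KDM3A, was lower in the second JNJ library (125, 93.8 and 119 CPM with JNJ, against 98.1, 100.5 and 102 CPM with DMSO). Without that library JMJD1C (0.29, edgeR adjusted p = 2.37e-05) and KDM7A (0.18, adjusted p = 0.0221) passed as higher, and JMJD1C also passed with no filter (0.16, adjusted p = 0.0148).

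Of 11 tested partners of KDM1A in the CoREST complex, 2 were higher and 0 lower by edgeR, with a median log2 fold change of 0.03. Over all genes tested 20.0% were higher and 17.1% lower, and the share of these partners higher was near the former. At an unadjusted p under 0.05, 1 was lower, and DESeq2 and limma-voom called 0 lower. The corepressor RCOR3 (0.32, adjusted p = 8.03e-06) and the zinc finger protein ZMYM2 (0.22, adjusted p = 0.000964) rose, and the deacetylase HDAC1 (0.11, adjusted p = 0.0615) did not pass, except without JNJ replicate 1 (0.13, adjusted p = 0.0484). With upper-quartile scaling the partner HMG20B was lower (-0.13, adjusted p = 0.049). Without JNJ replicate 2, PHF21A was higher (0.13, adjusted p = 0.0382). Partners of KDM2B in variant Polycomb complex 1 had 4 of 8 higher and 0 lower by edgeR, beside 20.0% and 17.1% over all genes. The median was 0.15, and 1 partner, RNF2, was lower at an unadjusted p under 0.05. USP7 (0.30), a deubiquitinase, BCORL1 (0.26), a corepressor, and SKP1 (0.22), an adaptor of ubiquitin ligases, had the smallest p. Of the 4, PCGF1 lost its call without JNJ replicate 3 (adjusted p = 0.0612) or DMSO replicate 1 (0.0833). The same held with upper-quartile scaling (0.0748), with no filter (0.0527) and in DESeq2 (0.0814). With upper-quartile scaling RNF2 was lower (-0.22, edgeR adjusted p = 0.0177). Partners of KDM6A in the KMT2C and KMT2D complexes had 3 of 9 higher and 0 lower by edgeR, against the same 20.0% and 17.1%. The median was 0.03, and 1 partner, KMT2D, was lower at an unadjusted p under 0.05. The 3 higher were the subunit PAXIP1 (0.62), the methyltransferase KMT2C (0.42) and the coactivator NCOA6 (0.28). Without JNJ replicate 1, KMT2D was lower (-0.22, edgeR adjusted p = 0.00295), as it was with upper-quartile scaling (-0.19, adjusted p = 0.0146) and with no filter (-0.14, adjusted p = 0.0153). Without DMSO replicate 3, PAGR1 was higher (0.49, adjusted p = 0.0455).

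Histone lysine methyltransferases, enzymes that write methyl marks on histone lysines, had 9 of 20 higher and 1 lower, with a median of 0.11. Over all genes tested 20.0% were higher and 17.1% lower. The H3K9 enzymes EHMT2 (1.79-fold, edgeR adjusted p = 1.21e-12) and SETDB1 (1.62-fold, adjusted p = 1.97e-11) and SMYD2 (1.40-fold, adjusted p = 5.68e-08), which methylates H3K36 and other proteins, had the smallest p. NSD3, an H3K36 enzyme, was among the 9 but lost its call without any 1 of JNJ replicates 1 and 3 (adjusted p = 0.168 and 0.123) and DMSO replicates 1, 2 and 3 (0.171, 0.0631 and 0.107), with upper-quartile scaling (0.222), with no filter (0.0586) and in DESeq2 (0.0753). Without JNJ replicate 2, SUV39H2 passed as higher (0.50, adjusted p = 0.0133). Enzymes that make or use 2-oxoglutarate, succinate and fumarate, the cosubstrate and competitors of JmjC enzymes, had 3 of 15 higher and 2 lower, with a median of 0.02, close to the 20.0% and 17.1% over all genes. The mitochondrial isocitrate dehydrogenase subunit IDH3B rose (0.57, edgeR adjusted p = 1.67e-09), and the cytosolic isocitrate dehydrogenase IDH1 (-0.39, adjusted p = 0.000118) and the aminotransferase GOT2 (-0.22, adjusted p = 0.000795) fell.

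Pathways known to induce single members were listed too. Of the hypoxia-inducible factor targets, 2 of 9 tested were higher and 1 lower, with a median of 0.09, near the 20.0% and 17.1% over all genes. The angiogenic factor VEGFA fell (-0.47, edgeR adjusted p = 4.80e-09), and the glycolytic regulator PFKFB4 (0.80, adjusted p = 2.06e-07) and the stress gene NDRG1 (0.44, adjusted p = 2.69e-05) rose. The glucose transporter SLC2A1 was also lower in 7 of the 13 alternatives, among them the fit without DMSO replicate 3 (-0.18, adjusted p = 0.00652), and ANKRD37 was higher without JNJ replicate 2 (0.84, adjusted p = 0.029). Of the NF-kB targets 8 of 10 were higher and 1 was lower, with a median of 0.42, beside 0.14 for KDM6B. The feedback inhibitor TNFAIP3 (0.76, edgeR adjusted p = 3.08e-12), the subunit NFKB2 (0.61, adjusted p = 5.89e-11) and the chemokine CCL2 (0.97, adjusted p = 2.15e-10) rose. RELB, also among the 8, lost its call without JNJ replicate 2 (adjusted p = 0.0551) or DMSO replicate 2 (0.0621), and with upper-quartile scaling (0.0646).

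**Figure D5:**
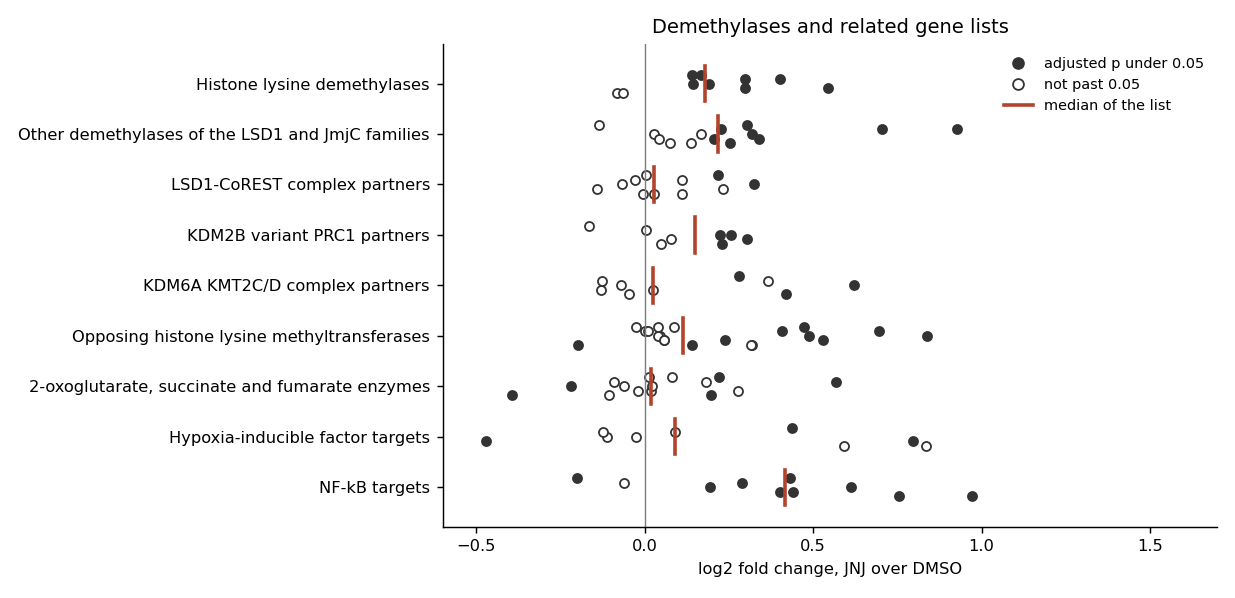
Log2 fold change, JNJ over DMSO (x axis), of every tested gene in the 10 members, the other LSD1 and JmjC family genes and 7 related lists, with filled points past an adjusted p of 0.05 and a red line at each list's median. The medians are 0.18 for the members, 0.22 for the other family genes, 0.03 for the CoREST partners and 0.42 for the NF-kB targets.

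The genes whose profile over the 6 libraries was most like that of KDM5A, the member with the smallest p, included AFDN, a junction scaffold (Pearson's r = 0.9997), and COL4A3, a basement membrane collagen (0.9994), on log2(CPM + 0.5). AFDN had 297, 265 and 283 CPM with JNJ and 193, 205 and 203 CPM with DMSO. In both of them the second JNJ library was the lowest of its group, and 1220 genes had an r over 0.95, as the points share the same libraries and group difference.

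PRMT5, the enzyme that the compound inhibits, did not pass (log2 fold change 0.07, edgeR adjusted p = 0.25), and the compound acts on the enzyme, so this does not check the labels. Biliary markers were present, with KRT7 and KRT19 among them, and summed to 4571 to 4838 CPM with JNJ and 5645 to 5919 CPM with DMSO. Of the 8, 1 was higher (SOX9) and 4 were lower (KRT7, KRT19, KRT8 and KRT18), beside 20.0% and 17.1% over all genes tested. The fibroblast list summed to 61.2 to 63.5 CPM with JNJ and 32.8 to 38.1 CPM with DMSO, nearly all of it COL1A1. COL3A1 and COL1A2 averaged at most 0.014 and 0.021 CPM in either group, and DCN 0.32 CPM with JNJ and 0.103 CPM with DMSO. The part of these genes in the members' values was not tested. The hepatocyte list summed to 353 to 389 CPM with JNJ and 337 to 351 CPM with DMSO, nearly all of it SERPINA1, with ALB and APOA1 near 0 and TTR at 0. Leukocyte and endothelial markers summed to at most 1.37 CPM with JNJ and 0.938 CPM with DMSO, with PTPRC and CD3E at or near 0.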

How the data were processed

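The deposited file holds raw, unscaled read counts for each gene, as the authors made them. The submitters' processing notes list FastQC (0.11.8), STAR (2.7.9a), featureCounts (1.6.0), limma and edgeR without saying what each did. They name a mouse build, GRCm39, although every identifier is that of a human Ensembl gene. The sources used here do not give the annotation release, the strand setting or the treatment of multi-mapping reads, which leaves reads of overlapping or opposite-strand genes open to mixing. Per the labels' protocols, libraries came from a stranded mRNA ligation kit.

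Of 60649 rows, 44 repeated an identifier at 0 counts and were dropped. Symbols were found for 60463 of 60605 genes. Genes were kept by filterByExpr (minimum count 10, minimum total 15), which left 17371, and fitted with edgeR 4.0.16 (glmQLFit, glmQLFTest, TMM scaling, group alone, R 4.3.3), with Benjamini-Hochberg adjustment over all of them. A standard error is the log2 fold change divided by the square root of F. CPM uses TMM-scaled library sizes. Log2 CPM for profiles added 0.5. Paralogue ratios used raw counts and exact permutation tests (Python 3.11.15). Lengths and exons came from GENCODE release 29. Libraries of 1 group differed beyond counting noise, with a chi-square of 2.67 to 8.96 per degree of freedom. The script was tested on simulated counts, with changes set larger than that of any member in the main fit. That test does not cover changes as small as those of the members. Alternatives were RLE and upper-quartile scaling, no filter, a filter of CPM above 1 in 3 libraries, DESeq2 1.42.0, limma-voom (limma 3.58.1), the replicate number as a block and leaving out each library.

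Named genes are all members, every tested gene of the other family list and, in each related list, the 3 with the smallest p, and for the member with the smallest p the 3 most alike genes, and PRMT5. SLC2A1, KMT2D, HMG20B, PHF21A, PCGF1, RNF2, PAGR1, NSD3, SUV39H2, ANKRD37 and RELB, whose calls changed with the processing, and the markers and overlapping genes were named after their values were seen. Some genes that this rule or a list names are not reported here. The members and lists were chosen with earlier results of these data known.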

Additional observations from a re-analysis of the deposited data

How the results depend on the processing

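The number of members higher was 8 and fell to 4 with upper-quartile scaling and 5 with no filter on low counts. With RLE scaling and in DESeq2 it was 6, and in limma-voom 7. When a library was left out it was 4 to 7. Among those fits it was 5 without JNJ replicate 3, DMSO replicate 1 or DMSO replicate 3 and 4 without DMSO replicate 2. Fewer samples enter those fits, and the cause of the other losses was not tested. Members called lower numbered 1 with upper-quartile scaling, which gave KDM1A a log2 fold change of -0.14, KDM2B 0.13, KDM4A 0.11, KDM5B 0.0857 and KDM6B 0.0803, and gave 10 genes lower in the related lists, against 5 with TMM. KDM2B did not pass with RLE scaling (0.18), no filter (0.18), DESeq2 (0.18), limma-voom (0.19) or the replicate block (0.19), nor KDM4A with RLE scaling (0.16), no filter (0.16), DESeq2 (0.16) or the replicate block (0.17), nor KDM6B with no filter (0.13). Without 1 library the log2 fold change of KDM2B lay between 0.15 and 0.21, of KDM4A between 0.12 and 0.19, of KDM5B between 0.13 and 0.17 and of KDM6B between 0.0931 and 0.15. Signs turned, without a call, for PHF2 (-0.0306 with upper-quartile scaling, and -0.005 without DMSO replicate 1 in a range of -0.005 to 0.0557 over the libraries left out) and JMJD6 (-0.0157 with upper-quartile scaling, and -0.0142 without JNJ replicate 2 in a range of -0.0142 to 0.0717). KDM2A, KDM3A, KDM5A and KDM6A kept their calls in all 13 alternatives. Calls over all genes with upper-quartile scaling were 40.6% higher, against 53.9% with TMM. The median log2 fold change over all genes was -0.0572 with upper-quartile scaling and 0.0014 with TMM. Over the members it was 0.12 and 0.18.

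Deviations from the group mean did not correlate between libraries of the same replicate number (-0.05, -0.01 and -0.001). This cannot show whether those libraries were prepared in pairs. With the replicate block 6 members were higher, and NSD3 in the methyltransferase list lost its call (0.14, edgeR adjusted p = 0.0603). The block cannot alter the mean changes of the paralogue ratios, and the smallest possible exact permutation p with it is 0.25.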
